A study of Rattus norvegicus with 12 samples.

Results

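Complex III, cytochrome c, complex IV and ATP synthase form the last steps of oxidative phosphorylation, and their nuclear genes were followed here through a hypertrophic stimulus and a knockdown in heart muscle cells. Members were taken by symbol: every gene whose symbol starts with Uqcr or Atp5, every Cox4 to Cox8 gene, Cyc1 and Cycs. The rule found 45 genes of the 18469 in the tables, and 44 of them had enough counts to be tested over all libraries, Cox7b2 being left out. They comprised 9 genes of complex III, 1 of cytochrome c, 16 of complex IV and 15 of ATP synthase, and 4 genes that match the rule without being core subunits (Cox7a2l, Cox7a2l2, Atp5s and Atp5if1). Subunits encoded by mitochondrial DNA were not analysed here.

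Neonatal rat ventricular myocytes (NRVMs), cultured muscle cells from the hearts of newborn Sprague-Dawley rats, were transfected with a negative control siRNA (siNeg) or an siRNA against Slc25a26 (siSlc25a26), which encodes the mitochondrial carrier of S-adenosylmethionine. Phenylephrine (PE), an α-adrenergic agonist that drives cardiomyocyte growth, was added 12 h later for 36 h in one set of each, and the other set was left untreated. The 4 groups were siNeg and siSlc25a26, each untreated or with PE, and each had 3 libraries, labelled as independent biological replicates, with 24770972 to 28709049 counts each. The cells were separated from fibroblasts by a density gradient, so that other cell types can remain, and in such bulk RNA fewer cells of a type and less RNA per cell cannot be told apart.

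Complex III passes electrons from ubiquinol to cytochrome c, complex IV passes them on to oxygen, and both pump protons. ATP synthase lets the protons flow back through its c ring and makes ATP in its F1 head. Several complex IV subunits exist as a form found in most tissues and a form found in heart and skeletal muscle, among them Cox6a1 and Cox6a2, Cox7a2 and Cox7a1, and Cox8a and Cox8b.

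The promoters of 4 members that the results turn on are printed first: Cycs and Uqcrc2, which rose under PE, Cox8b, which fell, and Cox6a2, the member with the highest level. Each is the 250 bases before the gene's start, 5′ to 3′ on the gene's strand, from RefSeq on the GRCr8 build, and capitals mark motif matches on either strand.
Cycs (chr4:80984768-80985017, minus strand): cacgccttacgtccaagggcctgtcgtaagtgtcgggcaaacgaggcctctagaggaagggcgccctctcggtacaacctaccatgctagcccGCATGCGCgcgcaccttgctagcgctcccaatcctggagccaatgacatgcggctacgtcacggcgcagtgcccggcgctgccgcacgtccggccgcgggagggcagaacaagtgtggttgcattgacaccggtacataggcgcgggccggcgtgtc
Uqcrc2 (chr1:184598990-184599239, plus strand): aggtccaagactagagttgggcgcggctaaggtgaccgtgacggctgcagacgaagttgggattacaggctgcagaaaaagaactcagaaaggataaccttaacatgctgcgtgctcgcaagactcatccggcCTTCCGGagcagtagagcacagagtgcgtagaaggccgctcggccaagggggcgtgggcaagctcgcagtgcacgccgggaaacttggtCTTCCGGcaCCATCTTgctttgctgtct
Cox8b (chr1:205408274-205408523, minus strand): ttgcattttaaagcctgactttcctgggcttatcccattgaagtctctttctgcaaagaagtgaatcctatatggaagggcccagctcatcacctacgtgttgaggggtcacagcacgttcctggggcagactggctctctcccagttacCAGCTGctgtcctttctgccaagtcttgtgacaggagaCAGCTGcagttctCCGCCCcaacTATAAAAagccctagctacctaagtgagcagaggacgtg
Cox6a2 (chr1:192219717-192219966, minus strand): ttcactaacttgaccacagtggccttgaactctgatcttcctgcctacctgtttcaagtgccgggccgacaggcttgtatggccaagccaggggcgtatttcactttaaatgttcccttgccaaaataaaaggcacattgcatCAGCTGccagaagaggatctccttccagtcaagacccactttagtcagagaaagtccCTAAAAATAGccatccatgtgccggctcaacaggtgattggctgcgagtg

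The capitals in Cycs are an NRF1 match at position -157 from the start. Uqcrc2 has ETS matches at -117 and -28 and a YY1 match at -19. Cox8b has E boxes at -100 and -62, a GC box at -49 and a TATA box at -39, and Cox6a2 has an E box at -107 and a MEF2 match at -50. In all, 12 motif spellings were searched on both strands of the 300-base windows (50 bases after the start included) of 37 members and of all 27457 genes with a window. Those 27457 were not limited to genes tested here or matched to the members in level. The first 6 spellings were chosen before the sequences were read and gave 1 match in the printed stretches, the GC box of Cox8b. The other 6, which include shorter forms of the first NRF1, ETS and YY1 spellings, were chosen after the 4 printed sequences had been read, so that their matches there are no evidence.

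Among the first spellings, the NRF1 motif (GCATGCGC with GC before it) was in 8.11% of the members' windows and 0.932% of all windows. The ETS motif CCGGAAGT was in 13.5% and 4.01%, and the YY1 motif (AAGATGG with CGG after it) in 5.41% and 1.16%. The CRE (TGACGTCA) was in 2.70% and 1.91%, the ERR motif (TCAAGGTCA) in 2.70% and 0.412%, and the GC box (GGGCGG) in 37.8% and 34.9%. These shares rest on 1 to 5 members a motif, except for 14 with a GC box. Among the spellings chosen afterwards, GCATGCGC (NRF1) was in 16.2% and 2.66%, CCGGAAG (ETS) in 29.7% and 9.22%, and AAGATGG (YY1) in 24.3% and 7.30%. The E box (CAGCTG) was in 18.9% and 15.1%, the 10-letter MEF2 motif, spelled as in the capitals of Cox6a2, in 2.70%, which is Cox6a2 alone, and 0.135%, and the TATA box (TATAAAA) in 5.41% and 5.85%. The 37 member windows include the 4 printed promoters, so the members' shares of the later spellings are not independent of that choice. Every match of a longer form is also a match of its shorter form, and a match says only that the letters are there.

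The targeted gene was checked first. Slc25a26 stood at 33.2, 31.6 and 29.3 CPM, the counts scaled to the library total, in siNeg and at 15.8, 14.9 and 14.7 in siSlc25a26. Without PE it was lower by 1.08 on the log2 scale (SE 0.0798, edgeR adjusted p = 1.08e-05). Under PE it stood at 113, 106 and 86.2 CPM in siNeg PE and at 102, 106 and 98.8 in siSlc25a26 PE as labelled. The log2 difference was -0.01 (SE 0.101, adjusted p = 0.969). A lower level of the target was therefore not seen under PE. Nap1l5, a nucleosome assembly protein and the target of the siRNA that the paper describes in place of siSlc25a26, was lower in both. It stood at 2.54, 3.47 and 4.72 CPM in siNeg and 1.40, 1.95 and 2.75 in siSlc25a26 (log2 fold change -0.84, SE 0.286, adjusted p = 0.0397), groups that overlapped. Under PE it stood at 13.5, 15.9 and 19.4 CPM in siNeg PE and 8.78, 8.19 and 6.76 in siSlc25a26 PE, without overlap (-1.05, SE 0.147, adjusted p = 0.000636). Which siRNA these libraries hold was not settled here, and siSlc25a26 below stands for the libraries labelled so.

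Summed markers of cell types and responses differed between the groups as well. The 10 cardiomyocyte markers summed to 19289 to 20524 CPM in siNeg, 26272 to 27420 in siNeg PE, 18427 to 20188 in siSlc25a26 and 26292 to 28051 in siSlc25a26 PE. The 10 fibroblast markers summed to 21620 to 23781 CPM in siNeg, 11789 to 12260 in siNeg PE, 12552 to 14088 in siSlc25a26 and 8812 to 9589 in siSlc25a26 PE. The 6 smooth muscle and pericyte markers summed to 829 to 917 CPM in siNeg, 635 to 733 in siNeg PE, 607 to 670 in siSlc25a26 and 970 to 1010 in siSlc25a26 PE. The 6 macrophage markers summed to 25.5 to 32.5 CPM in siNeg, 14.3 to 17.3 in siNeg PE, 18.6 to 20.2 in siSlc25a26 and 14.3 to 18.7 in siSlc25a26 PE. The 7 endothelial markers lay between 26.5 and 33.6 CPM over all groups. The 10 interferon response genes summed to 202 to 235 CPM in siNeg and 144 to 162 in siNeg PE, but to 7961 to 8640 in siSlc25a26 and 4757 to 5294 in siSlc25a26 PE, and all 10 rose in both comparisons of siSlc25a26 with siNeg. Within a list the genes did not all move alike at an adjusted p under 0.05 (edgeR). With PE in siNeg, 2 of 10 fibroblast markers rose (Dcn and Pdgfra) and 5 fell. Against siNeg, Tcf21 was higher in siSlc25a26 while 8 fibroblast markers were lower without PE and 9 under PE. Of 6 smooth muscle and pericyte markers, 5 were lower and 0 higher in siSlc25a26 without PE, and 3 were lower and 3 higher under PE. Every marker was detected in every library. Their part in the results was not tested.

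The members were among the most abundant messages of these cells. In siNeg, Cox6a2 had the highest level per length, 5165 ± 367 FPKM (SD, n = 3), followed by Atp5f1b, the catalytic β subunit of the F1 head, at 3331 ± 102. Cox8a (1734 ± 96.5) and Atp5f1a, the α subunit (1730 ± 8.13), did not differ beyond their spread. In complex III the highest level was 809 ± 52.1 FPKM for Uqcr11 and the lowest 140 ± 7.88 for Uqcrb, and Cycs had 380 ± 36.9. At the low end stood Cox6b2 (6.27 ± 0.758), Atp5s (3.80 ± 0.496), Cox4i2 (1.74 ± 0.546) and Cox7a1 (0.880 ± 0.357). Cox7b2 had 0 to 1 counts in a library.

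Together the members took 2.67 ± 0.143% of all counts in siNeg, 2.64 ± 0.146% in siNeg PE, 2.10 ± 0.0323% in siSlc25a26 and 1.93 ± 0.0933% in siSlc25a26 PE (SD, n = 3). The ranges of the siNeg and siSlc25a26 libraries did not overlap, with or without PE.

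Nearly the whole set was lower in siSlc25a26 than in siNeg. Without PE, 36 of 44 tested members fell and 0 rose at an adjusted p under 0.05, where 21.7% of all 13829 tested genes fell and 23.3% rose. The median log2 fold change was -0.45, against 0.01 over all genes, and 5 members fell by more than 1.5-fold, as did 7.2% of all genes. With the rows that share reads summed, 4 did. At an unadjusted p under 0.05, 38 members differed, and other tools passed at most 1 member as higher. All 9 complex III genes fell (median -0.49), with 11 of 15 in complex IV (median -0.49), 14 of 15 in ATP synthase (median -0.41) and Cycs.

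**Figure D1:**
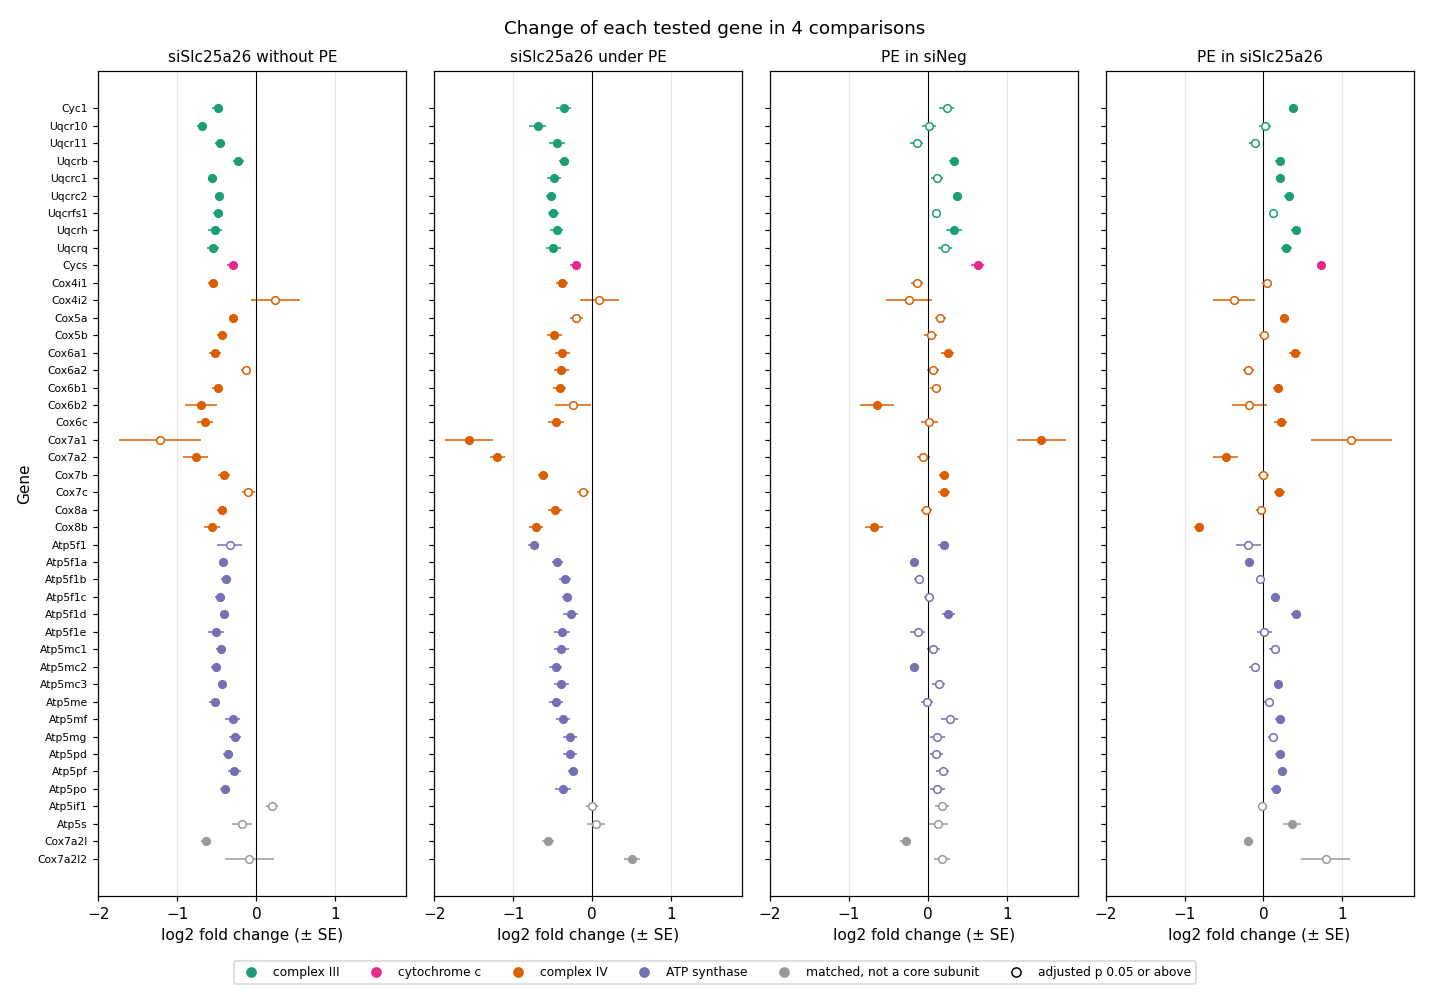
Log2 fold change of each tested gene (points, with SE as bars) in 4 comparisons of 3 against 3 libraries, coloured by complex. Filled points have an adjusted p under 0.05. In the panels on siSlc25a26, 36 and 37 of 44 genes lie below 0 with filled points, whereas the PE panels hold both directions.

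In complex III, Uqcrc1, a core protein of the complex, had 636, 629 and 570 CPM in siNeg and 431, 423 and 416 in siSlc25a26. The groups did not overlap, and the log2 fold change was -0.56 (SE 0.0576, adjusted p = 9.29e-05). Cyc1, the cytochrome c1 that hands electrons to cytochrome c, went from 601, 620 and 526 CPM to 434, 416 and 416 (log2 fold change -0.49, SE 0.0695, adjusted p = 0.000571). Uqcr10, a small subunit, had the lowest value of the complex at -0.69, or -0.62 when summed with its pseudogene, with which it shares reads.

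In ATP synthase, Atp5f1b had 5543, 5566 and 5280 CPM in siNeg and 4257, 4337 and 4099 in siSlc25a26. Every siSlc25a26 library was below every siNeg library (log2 fold change -0.39, SE 0.0527, adjusted p = 0.000415). The 3 genes of the c ring, which encode the same mature protein, all fell: Atp5mc1 by 0.45, Atp5mc2 by 0.51 and Atp5mc3 by 0.43 on the log2 scale. The exception in the complex was Atp5f1, the b subunit of the peripheral stalk (named Atp5pb in RefSeq), at -0.34 (adjusted p = 0.111) on its own row and at 0.10 (adjusted p = 0.172) when summed with the copy it shares reads with.

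In complex IV the muscle form Cox6a2 did not pass while its partner did, a contrast that was not itself tested. Cox6a2 had 2047, 2129 and 1863 CPM in siNeg and 1803, 1980 and 1838 in siSlc25a26, and these overlapped (log2 fold change -0.13, SE 0.0671, adjusted p = 0.145). Cox6a1, the form of most tissues, fell from 603, 634 and 534 CPM to 410, 400 and 444 (-0.52, SE 0.0758, adjusted p = 0.000649). Cox7c, at -0.10 (SE 0.0785, adjusted p = 0.332), was the other abundant complex IV gene that did not pass. Cox6b2, a form of Cox6b1 known from testis, fell by 0.70, from 2.72, 2.52 and 2.10 CPM to 1.70, 1.72 and 1.18, and Cox4i2 and Cox7a1 did not pass.

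Of the 4 genes outside the core, Cox7a2l, which takes part in joining complexes III and IV into supercomplexes, fell from 349, 371 and 331 CPM to 227, 222 and 237 (-0.64, SE 0.06, adjusted p = 4.77e-05). Atp5if1, the inhibitor of ATP hydrolysis by ATP synthase, was at 152, 163 and 135 CPM in siNeg and 171, 176 and 183 in siSlc25a26 (0.20, SE 0.074, adjusted p = 0.0506), without overlap.

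Under PE, 37 of 44 members were lower and 1 was higher in the libraries labelled siSlc25a26 PE than in siNeg PE, where 20.1% of all 13671 tested genes were lower and 20.1% higher. The median was -0.39 against 0 over all genes, and 6 members were lower by more than 1.5-fold, as were 8.1% of all genes. With the rows that share reads summed, 34 members were lower and 2 of them by more than 1.5-fold, Cox7b and Cox8b. Complex III again had 9 of 9 lower (median -0.48), complex IV 11 of 15 (median -0.41) and ATP synthase 15 of 15 (median -0.37). Cycs was lower by 0.21 (SE 0.069, adjusted p = 0.0348), but not when summed with its pseudogene (-0.19, adjusted p = 0.0694), and it lost the call without siSlc25a26 PE library 1 or 2 or siNeg PE library 1 or 2. Here Cox6a2 was lower as well, by 0.39 (SE 0.0917, adjusted p = 0.00861), with 2269, 2172 and 1950 CPM in siNeg PE and 1791, 1650 and 1462 in siSlc25a26 PE. Cox8b had the largest fall among the members with whole counts, 0.71 (SE 0.0899, adjusted p = 0.000377).

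The 2 comparisons of siSlc25a26 with siNeg share no library. The log2 fold changes had the same sign for 41 of the 44 members and for 74.2% of 13508 genes. Of the members, 34 passed as lower in both, and the share of all genes that did was not counted. The correlation over members was 0.80 (Pearson; all genes, 0.80), given as a description, since the members share libraries and depth.

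The same direction was seen in the complexes upstream. Of 35 tested complex I genes, 32 were lower without PE and 31 under PE (medians -0.31 and -0.34), and of 4 complex II genes 4 and 3 were lower. Ndufa4, a complex IV subunit outside the symbol rule, fell by 0.49 and 0.55, and Usmg5, a small ATP synthase subunit, did not pass in either. Of 21 tested assembly factors of complex IV, 7 were lower and 3 higher without PE, where 21.7% of all genes were lower and 23.3% higher, and 7 lower and 2 higher under PE, where it was 20.1% each. For complex III it was 2 lower and 1 higher of 6 in both comparisons, and for ATP synthase 2 lower of 5 in both, with 1 higher without PE. Hccs, the lyase that attaches heme to cytochrome c, was at -0.03 and -0.08 and did not pass.

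Under PE, members changed in both directions. In siNeg, 10 of 44 rose and 5 fell, where 25.2% of all 13719 genes rose and 24.3% fell. The median log2 fold change was 0.12 against 0 over all genes. In siSlc25a26, 20 rose and 4 fell, where 26.4% of 13776 genes rose and 26% fell, with a median of 0.14. The second split depends on the scale: with limma on log2(FPKM + 1) it was 4 rising and 10 falling, and that scale shifts the median of all genes by -0.13. In siNeg the same scale gave 5 and 5. Without siNeg PE library 2 or siNeg library 3, only 4 members rose in siNeg, and without siSlc25a26 PE library 2 only 10 rose in siSlc25a26. With the replicate number as a block, 22 rose and 8 fell in siNeg, where 68.2% of members and 61.7% of all genes passed. Without the block, 34.1% and 49.5% did. In siSlc25a26 the block gave 15 rising and 2 falling.

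**Figure D2:**
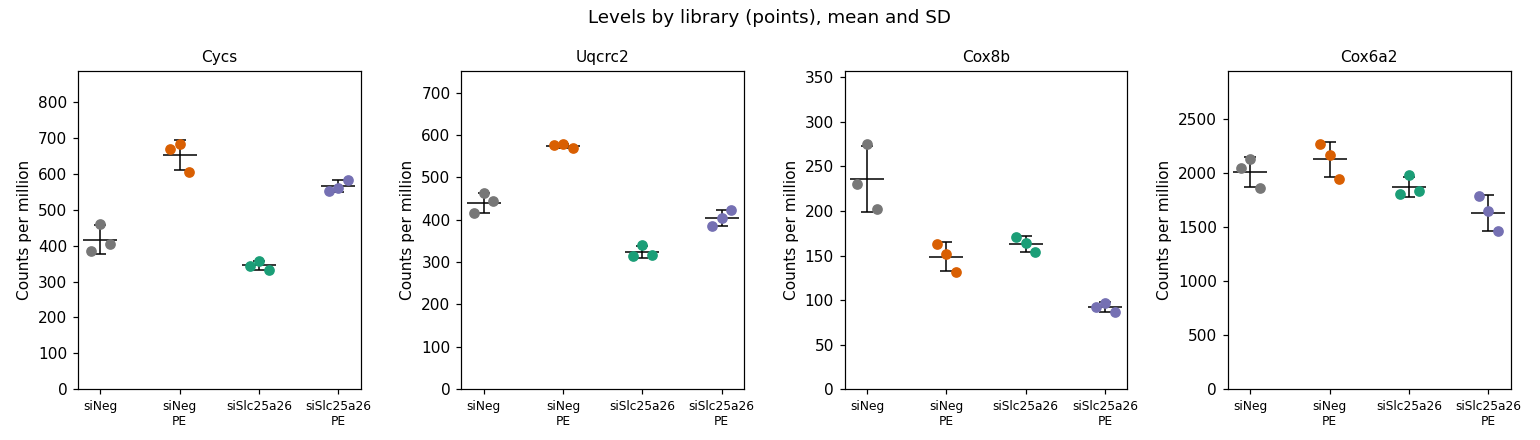
CPM of Cycs, Uqcrc2, Cox8b and Cox6a2 in the 3 libraries of each group (points), with mean and SD (black). Cycs lies at 606 to 683 in siNeg PE and 385 to 461 in siNeg, and Cox8b is lower in both PE groups than in the group without PE beside it.

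Cycs, the electron carrier between complexes III and IV that also takes part in apoptosis, rose most among members with over 10 CPM that passed the test. It had 385, 461 and 405 CPM in siNeg and 669, 683 and 606 in siNeg PE (log2 fold change 0.63, SE 0.0768, adjusted p = 0.000406). In siSlc25a26 it went from 344, 357 and 333 CPM to 553, 562 and 584 (0.73, SE 0.05, adjusted p = 4.97e-06). No PE library overlapped with its untreated group, and Hccs rose beside it, by 0.81 in siNeg and 0.76 in siSlc25a26.

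Cox8b, the muscle form of the smallest complex IV subunit, fell in both. It had 230, 275 and 202 CPM in siNeg and 163, 152 and 131 in siNeg PE (-0.68, SE 0.116, adjusted p = 0.00205). In siSlc25a26 it went from 171, 164 and 154 CPM to 92.3, 97.0 and 86.2 (-0.82, SE 0.0602, adjusted p = 7.63e-06). Cox8b was thus lowest in siSlc25a26 PE, where none of the 3 libraries reached the range of another group.

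In complex III, 3 of 9 genes rose under PE in siNeg and 6 of 9 in siSlc25a26, and 0 fell. Over all genes, 25.2% rose and 24.3% fell in siNeg, and 26.4% rose and 26% fell in siSlc25a26. Uqcrc2, the other core protein, rose from 415, 462 and 443 CPM to 577, 578 and 569 in siNeg (0.37, SE 0.054, adjusted p = 0.000962) and from 315, 340 and 316 to 384, 403 and 422 in siSlc25a26 (0.32, SE 0.0565, adjusted p = 0.00127). Uqcrb and Uqcrh rose in both too, whereas Uqcr11 was at -0.14 and -0.11 and did not pass. In ATP synthase 2 of 15 rose and 2 fell in siNeg, and 7 rose and 1 fell in siSlc25a26. Atp5f1d, the δ subunit of the F1 head, rose in both by 0.26 and 0.41, and its row shares reads with the overlapping gene Midn. Atp5f1a fell in both, by 0.17 and 0.18.

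The 3 largest changes in each direction included members not yet given. In siNeg the own row of Cox7a1 had 0.906, 0.954 and 0.406 CPM and 2.43, 1.71 and 2.08 with PE (1.44, SE 0.316, adjusted p = 0.00646), with counts that are not whole. Cox6b2 fell with PE in siNeg from 2.72, 2.52 and 2.10 CPM to 1.63, 1.24 and 1.88 (-0.64, SE 0.213, adjusted p = 0.0364). Cox7a2l fell from 349, 371 and 331 CPM to 303, 301 and 267 (-0.28, SE 0.0657, adjusted p = 0.00805). In each of these the groups did not overlap. In siSlc25a26, Uqcrh, the hinge protein of complex III, rose from 159, 168 and 182 CPM to 230, 224 and 217 (0.41, SE 0.059, adjusted p = 0.000449), and Cox7a2l fell from 227, 222 and 237 to 211, 203 and 183 (-0.19, SE 0.0598, adjusted p = 0.0235), again without overlap.

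Members called in both arms were Atp5f1d, Cox6a1, Cox7c, Cycs, Uqcrb, Uqcrc2 and Uqcrh, which rose, and Atp5f1a, Cox7a2l and Cox8b, which fell. The arms have no library in common, and the share of all genes called in both arms was not counted. The sign was the same for 38 of 44 members and for 79.6% of 13506 genes (Pearson 0.83 over members and 0.73 over all genes, as a description). Over 17 alternatives, Cycs rose and Cox8b fell in every one in both arms. Each of the other members called in both arms lost the call in some alternatives in an arm or in both, Cox7c in 8 in each arm.

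The difference between the PE effects in the 2 arms was tested for each member over all 12 libraries. It passed for 0 of 44 members by edgeR, where 11.2% of 14097 genes passed in either direction, and 2 members had an unadjusted p under 0.05, Cox6a2 and Cox7b. DESeq2 and limma-voom also passed 0, whereas limma on either FPKM scale passed 2 as lower (Atp5if1 and Cox7b), as did the replicate block (Cox6a2 and Cox7b). These 2 are 4.55% of members. Of all genes, 16.5% passed on log2(FPKM + 1), 15.1% on log2(FPKM + 0.1) and 16.1% with the block. The smallest adjusted p was that of Cox6a2, 0.146, with a log2 difference of -0.28 (SE 0.116). Without siSlc25a26 library 3, 1 member was higher (Cox7a2l2) and 2 were lower (Atp5f1 and Cox7a2), all of which share reads with a copy. In that fit 6.82% of members and 8.8% of all genes passed.

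**Figure D3:**
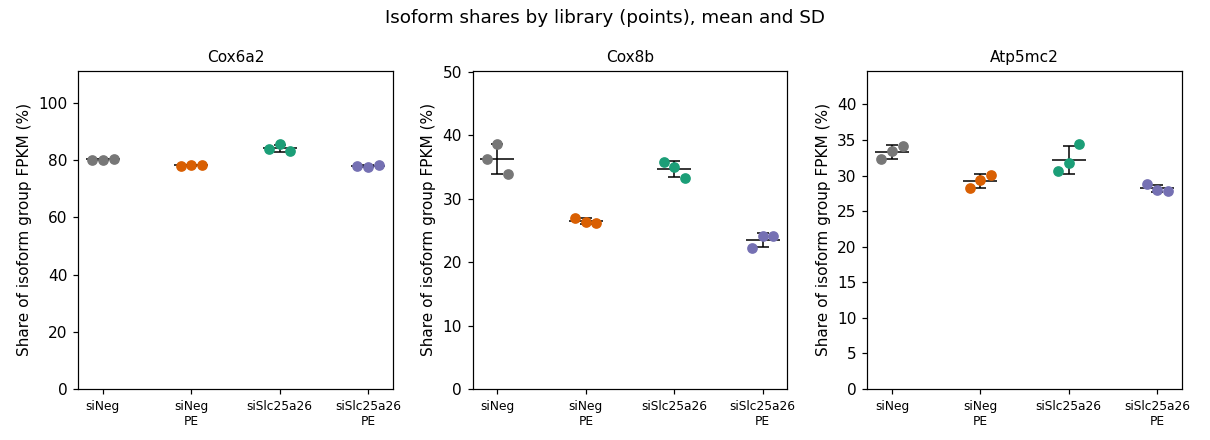
Share of Cox6a2, Cox8b and Atp5mc2 in the summed FPKM of their isoform groups (%), for 3 libraries a group (points) with mean and SD (black). Cox8b falls from 36.2% to 26.5% with PE in siNeg and from 34.7% to 23.5% in siSlc25a26.

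The tissue isoforms were described by their share in the summed FPKM of their group of isoforms, with no test. Cox6a2 made up 80.2 ± 0.302% of Cox6a in siNeg, 78.1 ± 0.204% in siNeg PE, 84.1 ± 1.20% in siSlc25a26 and 78.0 ± 0.296% in siSlc25a26 PE (SD, n = 3). The siSlc25a26 libraries, at 83.1 to 85.5%, lay above all others. Cox8b made up 36.2 ± 2.37% of Cox8 in siNeg, 26.5 ± 0.470% in siNeg PE, 34.7 ± 1.25% in siSlc25a26 and 23.5 ± 1.03% in siSlc25a26 PE, and no PE library reached the range of an untreated one.

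The c ring genes shared their group nearly evenly, and Atp5mc2 went from 33.3 ± 0.961% to 29.3 ± 0.958% with PE in siNeg and from 32.2 ± 1.94% to 28.2 ± 0.524% in siSlc25a26. Cox4i2, the form of Cox4 known from lung, stayed between 0.102% and 0.186% in mean, and Cox6b2 between 0.252% and 0.420%. Cox7a1, the muscle form, made up 0.0706% to 0.302% of Cox7a on its row. The rows of Cox7a1 and a second locus, which RefSeq names Cox7a1, summed to 3.70, 3.39 and 3.36 CPM in siNeg and 6.61, 6.30 and 6.75 in siNeg PE, a rise of 0.90 (SE 0.117, adjusted p = 0.000574). The sum also rose in siSlc25a26, by 0.73 (adjusted p = 0.0166), and did not differ between siSlc25a26 and siNeg beyond the test (0.16 and 0).

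**Figure D4:**
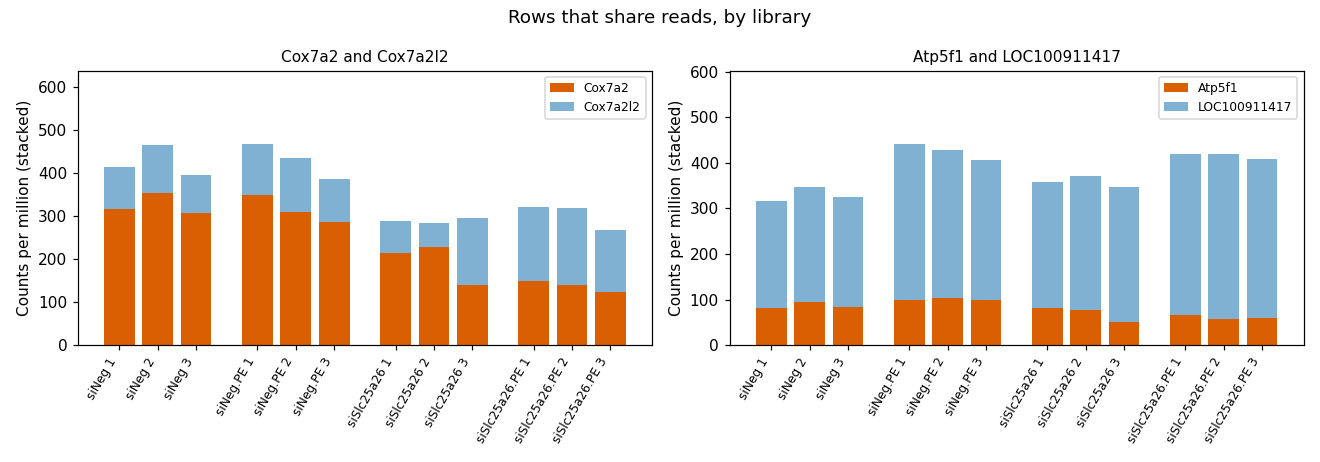
CPM of Cox7a2 with Cox7a2l2 (left) and of Atp5f1 with LOC100911417 (right), stacked for each of the 12 libraries. In siSlc25a26 library 3 the split of Cox7a2 and Cox7a2l2 differs from libraries 1 and 2, while the 3 sums are 288, 284 and 295.

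Some rows share reads with a copy, which the estimated counts split between them. The fractional counts of 6 such pairs sum to whole numbers in at least 11 of 12 libraries (within 0.02 counts). Cox7a1, whose counts are not whole in any library, was paired with its second locus by RefSeq name only. By the same rule, 6 members pair with a different named gene and were not summed: Atp5f1d (Midn), Atp5pd (Nadk), Atp5pf (Gabpa), Atp5s (Cdkl1), Cox8a (Otub1) and Uqcrc2 (Pdzd9). Midn took 19.7 to 36.1% of its pair, Otub1 13.1 to 19.8% and Pdzd9 0.0707 to 0.254%. The Cox8 shares use the Cox8a row as it stands. Cox7a2 had 213, 229 and 139 CPM in siSlc25a26 and Cox7a2l2 had 74.4, 55.9 and 156, so that library 3 stood apart in both rows and not in their sum. On its own row Cox7a2 fell by 0.77 without PE and by 1.20 under PE, and summed with Cox7a2l2 by 0.58 (adjusted p = 0.000176) and 0.52 (adjusted p = 0.00259). The fall of Cox7a2 with PE in siSlc25a26 (-0.48) became 0.07 when summed, and the single member that was higher under PE in siSlc25a26 was Cox7a2l2.

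Atp5f1 shares reads with LOC100911417, which took 72.4 to 86.2% of the pair. Its row was lower by 0.74 in siSlc25a26 PE than in siNeg PE (adjusted p = 4.82e-05), and the sum differed by -0.05 (adjusted p = 0.574). Under PE the sum rose in both arms, by 0.36 in siNeg (adjusted p = 0.00117) and 0.22 in siSlc25a26 (adjusted p = 0.00301). The fall of Cox7a1's own row in siSlc25a26 PE, 1.56, was likewise absent from its sum. Among the 27 members with whole counts in every library, 26 were tested. Of these, 23 were lower in siSlc25a26 without PE and 22 under PE, with 0 higher, where 21.7% and 20.1% of all genes were lower. With PE in siNeg, 4 of the 26 rose and 4 fell, where 25.2% of all genes rose and 24.3% fell. In siSlc25a26, 10 rose and 3 fell, where 26.4% of all genes rose and 26% fell.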

How the data were processed

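The authors deposited estimated counts per gene, made from reads aligned by them, and, in another table, FPKM, which scales by gene length and library total. HISAT, Bowtie2 and Rnor_6.0 are named in the submitters' processing notes, and the strand setting is not given in the sources used here. Between 20.8% and 21.9% of the counts per library are not whole, so they were rounded, although plain counts had been assumed. The groups come from the sample labels. The paper describes siNap1l5 with other times of transfection and PE, whereas the labels give siSlc25a26.

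Each comparison was fitted on its 6 libraries with edgeR 4.0.16 in R 4.3.3 (TMM, filterByExpr, quasi-likelihood F-test, Benjamini-Hochberg over all tested genes), and the difference of PE effects on all 12. A member passed at an adjusted p under 0.05, and folds above 1.5 were counted too. CPM scales counts to the library total times its TMM factor, which was 0.923 to 1.05 over the libraries. The order of levels across genes and the isoform shares use FPKM. Alternatives were DESeq2 1.42.0, its size factors, limma 3.58.1 (voom and log2 FPKM) and other filters. Further ones were a replicate block, 1 fit of all libraries and leaving out each library. Summing shared rows and leaving out the rows with the most counts were chosen after seeing the data. The rows left out were those among the 20 with the most counts in any library, except members. The fit of siSlc25a26 without PE was tested on simulated data. With 200 genes changed 1.35-fold, 102 were recovered, with 7 false calls. With 200 genes changed 2-fold, 196 were recovered, with 7 false calls.

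The members and lists were chosen with earlier results of these data known. Named with values are isoform group members, Cyc1, Cycs, the 3 largest changes in each direction per comparison, Slc25a26, and others picked after seeing values as examples (Uqcrc1, Atp5f1b, Atp5if1 and Hccs among them). RefSeq (GRCr8) matched 44 of 45 members by gene identifier and gave the promoters. Of the 12 motif spellings, 6 were chosen after the printed promoters had been read, replacing the first 6, and both sets are reported. The labels give no batch.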

Additional observations from a re-analysis of the deposited data

How the results depend on the processing

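The members lower in siSlc25a26 held: 32 to 38 without PE and 29 to 39 under PE when each library was left out, and 31 of 36 and 27 of 37 passed in all 17 alternatives. Members higher without PE were 0, or 1 with DESeq2, limma-voom, either FPKM scale, the filter of 10 counts or all 12 libraries in one fit (0 to 1 leaving out a library). Members higher under PE were 1 (1 in each fit without a library), and 0 with all 12 libraries in one fit. Summing shared rows merges that member, Cox7a2l2, into Cox7a2, so the 0 there follows by construction. For PE in siNeg, leaving out a library gave 4 to 14 higher and 2 to 4 lower, DESeq2 3 lower, and log2(FPKM + 1) and log2(FPKM + 0.1) 5 higher. For PE in siSlc25a26, leaving out a library gave 10 to 22 higher and 1 to 5 lower, both FPKM scales 4 higher and 10 lower, and all 12 libraries 13 higher. Of all members passing in these PE comparisons, 4 of 10 and 4 of 20 rose in all alternatives, and 2 of 5 and 1 of 4 fell. The difference of PE effects passed for 0 to 1 higher and 0 to 2 lower without a library, and for 2 lower with FPKM or the block. With shared rows summed, the values of Atp5f1 (0.22) and Cox7a2 (0.07) for PE in siSlc25a26 reversed, by construction from the copies' counts, those of Atp5f1 (0.10) and Cox7a1 (0.16) without PE changed sign without passing in either fit, and 34 members were lower under PE (without Atp5f1, Cox7a1 and Cycs).

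The replicate numbers were not taken as pairing, since in no comparison did every same-numbered pair correlate above 0.1: deviations correlated at 0.45, 0.06 and 0.49 for PE in siNeg, 0.43, -0.01 and 0.32 for siSlc25a26 under PE, 0.10, 0.02 and 0.01 without PE and -0.15, -0.07 and -0.12 for PE in siSlc25a26. In the first 2 of these, 2 of 3 pairs did. With the number as a block, 22 rose and 8 fell for PE in siNeg (68.2% of members and 61.7% of all genes passed, against 34.1% and 49.5% without the block), 15 and 2 for PE in siSlc25a26, and 36 and 38 were lower in siSlc25a26 without and under PE. With CPM in place of FPKM, Cox6a2 shares were 77.3, 75.1, 81.7 and 74.9% (siNeg, siNeg PE, siSlc25a26, siSlc25a26 PE), Cox8b shares 24.9, 17.3, 23.5 and 15.1%, and Atp5mc2 shares 32.2, 28.2 and 27.1% in siNeg, siNeg PE and siSlc25a26 PE, since CPM is not per length. The cause of the other shifts was not tested. With 3 libraries a group, a member that did not pass may still differ.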
